A study of Homo sapiens with 10 samples.

Results

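The melanoma cell lines described here, WM983A, WM983B and WM902B, are those whose drug-resistant derivatives held much less RNA of the pigment genes than the parental cells. A line was taken if the mean of log2(CPM + 1) over PMEL, MLANA, TYR, DCT and SOX10 (CPM, counts scaled to the library total) was lower by at least 1 in the resistant than in the sensitive library. Of 5 lines, 3 met this rule, which gives 6 of 10 libraries. The change was -6.72 in WM902B, -5.24 in WM983A and -2.83 in WM983B, the line nearest to the limit on the inside. WM1617 was nearest on the outside at -0.173, and WM278 stood at 0.184.

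All 5 lines carry a BRAF mutation, and RNA was sequenced from the parental (sensitive) cells and from their E+BRes (resistant) derivative, 1 library each. The resistant cells had been raised with the BRAF inhibitor encorafenib and the MEK inhibitor binimetinib together, from 1 nM up to 200 nM over 3 to 5 months, and were then kept in 200 nM of both, so that resistance and the presence of drug cannot be told apart. WM983A, from a primary tumour, and WM983B, from a metastasis, came from the same patient and are not independent. WM902B came from a primary tumour of another patient, and WM278 and WM1617 are a further pair from 1 patient. Each derivative is 1 selected culture with no replicate, so the 3 lines served as the replicates and p-values measure the spread between lines only.

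Melanocytes take their identity from a small set of transcription factors, among them SOX10 and MITF, which switch on the enzymes and structural proteins of the melanosome, the organelle in which pigment is made. BRAF and MEK act one after the other in the pathway that ends in the kinase ERK, and ERK in turn induces its own inhibitors, the DUSP and SPRY proteins. Melanoma cells are known to be able to leave the pigment-making state for less differentiated ones, in which other receptor tyrosine kinases, AP-1 and TEAD transcription factors and matrix proteins are often prominent.

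The 6 libraries held 13693922 to 15458683 counts, and 24908 to 27323 genes had at least 1 count. The floor of 3 counts, at or below which a gene was taken as silent, corresponds to 0.194 to 0.219 CPM. The library labelled resistant WM983A stood apart from the others. Among 8564 genes at 10 CPM or more in all 6 libraries of WM278, WM1617 and WM902B, 6 had at most 3 counts in the sensitive libraries of both WM983A and WM983B, and 5 of these 6 were at 10 CPM or more in resistant WM983A but 0 of them in resistant WM983B. Of the 5, 3 lie near each other on chromosome 11 (GRCh38): BIRC2, an inhibitor of apoptosis, from 102347211 to 102378670, DCUN1D5 from 103050686 to 103092194, and DYNC2H1, a dynein of cilia, from 103109410 to 103479863. BIRC2 had 0 counts in sensitive WM983A, 0 in sensitive WM983B and 9 in resistant WM983B, against 1056 in resistant WM983A. TMEM123, which lies between BIRC2 and DCUN1D5 and was chosen after its values were seen, had 9, 1, 48 and 4891 counts in the same order.

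Markers of epithelial cells moved with that library too. The summed level of 18 of them was 99.8 CPM in sensitive and 3186 in resistant WM983A, against 88.5 and 360 in WM983B, 189 and 235 in WM902B, and 103 to 331 in the 4 libraries of the other lines. SPINT2, a protease inhibitor of epithelia, went from 0.130 to 880.4 CPM in WM983A, the cell adhesion protein CDH1 from 0.648 to 58.8 and the keratin KRT7 from 2.92 to 636. Not all markers did so. Of 8 with enough counts to be compared, 6 were at least 2-fold higher in resistant WM983A and 1 at least 2-fold lower. The lower one was the splicing factor gene ESRP1, whose levels are given further below. Over 17551 genes the log2 level in resistant WM983A correlated with sensitive WM983A at r = 0.823 and with sensitive WM902B at 0.844, whereas resistant WM983B and resistant WM902B correlated best with their own parental library, at 0.909 and 0.892 (across genes, which are not independent and share each library's depth). The origin of this library was not tested. Results are therefore given with WM983A and, where a count or a call depends on it, also without it.

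**Figure D1:**
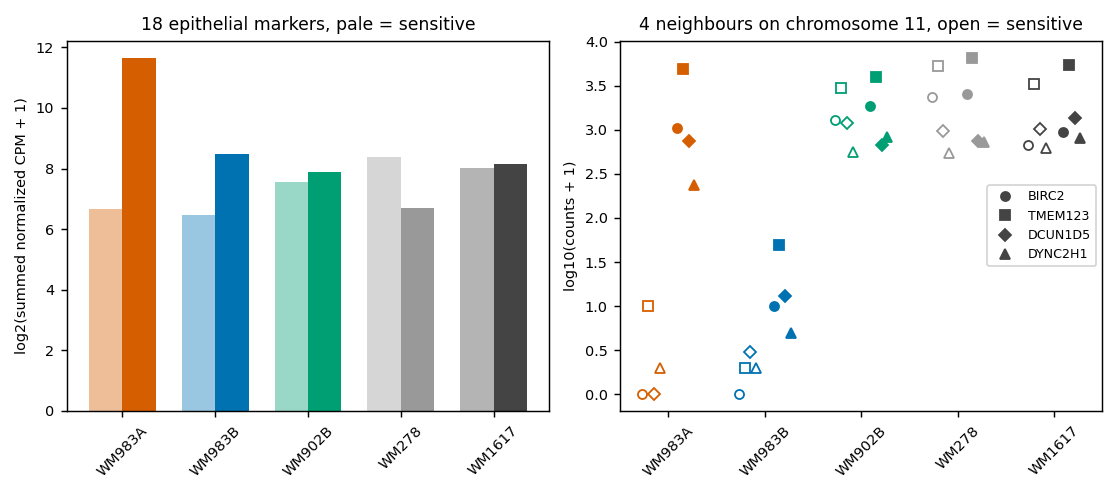
The left panel shows as bars the summed level of 18 epithelial marker genes in each library, on a log2 scale of normalized CPM plus 1 (pale, sensitive; dark, resistant), and the right panel shows as points the counts of 4 genes of chromosome 11, on a log10 scale of counts plus 1 (open, sensitive; filled, resistant). The epithelial sum was highest in resistant WM983A, and the 4 genes had 235 to 4891 counts there against at most 48 in the other 3 libraries of WM983A and WM983B.

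The melanocyte program itself was described and not tested, since its genes chose the lines. Levels from here on are normalized CPM, that is, CPM after the libraries were scaled to each other by the TMM method of edgeR. PMEL, which builds the fibrils of the melanosome, was at 1387 to 31.1 CPM in sensitive and resistant WM983A, 455 to 26.1 in WM983B and 1437 to 7.08 in WM902B. SOX10, the transcription factor on which the lineage depends, was at 337 to 6.33, 303 to 12.7 and 317 to 0.674 CPM. All 3 resistant libraries lay below all 3 sensitive ones for both genes, and WM902B kept the least. MLANA, a melanosomal antigen, went the other way in WM983B, at 0.917 to 3.98 CPM, while it was lower in the resistant libraries of WM983A (35.2 to 4.75) and WM902B (197 to 1.01). So 4 of the 5 genes of the rule were at least 2-fold lower in every line, and the label of a lost program rests in WM983B on PMEL, TYR, DCT and SOX10. In bulk RNA, fewer pigmented cells and less RNA per cell cannot be told apart.

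Beyond the 5 genes of the rule, 30 further genes of the lineage were examined, and 28 had enough counts to be compared. Of the 28, 16 were at least 2-fold lower in every line, against 388 of all 17551 genes (2.21%), and 0 were 2-fold higher in every line. The median log2 fold change over the 28 genes was -2.71. MITF, which drives the melanosome genes, was at 379 to 33.6 CPM in WM983A and 261 to 37.1 in WM983B, but at 400.0 to 219 in WM902B, less than 2-fold apart in the line that had lost the most SOX10 RNA. ERBB3, a receptor of neuregulin under SOX10 control, was at 406 to 5.88, 306 to 15.1 and 196 to 0.472 CPM in the 3 lines. S100B, a calcium-binding protein of melanocytes and glia, was at 597 to 3.54, 231 to 8.77 and 175 to 0.741 CPM. The loss was uneven, because the endothelin receptor EDNRB went from 137 to 0.829 CPM in WM983A but from 94.9 to 38.0 in WM983B and 32.2 to 23.6 in WM902B, and PAX3, an upstream factor, went from 36.7 to 0.979 in WM983A but only from 30.8 to 25.0 in WM983B. TFAP2A, another factor of the lineage, differed by less than 2-fold in all 3 lines, at 84.7 to 58.4, 82.8 to 114 and 67.6 to 57.9 CPM.

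**Figure D2:**
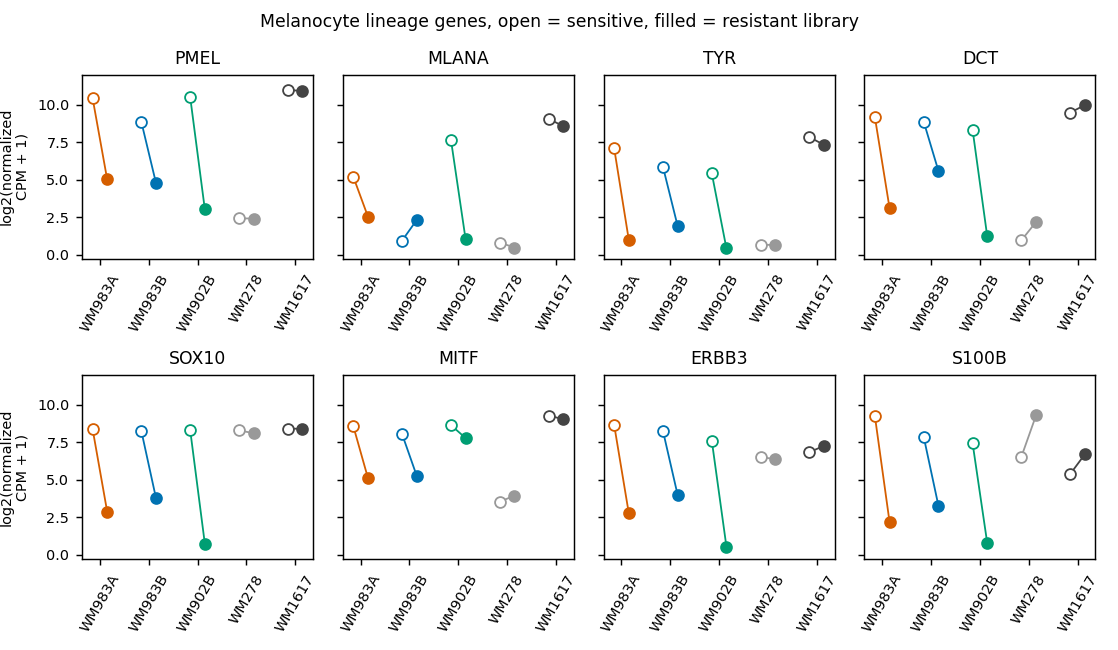
Each panel plots 1 gene as log2(normalized CPM + 1) for the sensitive (open) and the resistant (filled) library of the 5 lines, joined by a line. PMEL, TYR, DCT, SOX10, ERBB3 and S100B drop in WM983A, WM983B and WM902B, MLANA goes up in WM983B, and MITF in WM902B is at 400.0 to 219 CPM.

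Over all genes, resistant and sensitive libraries were set against each other in the quasi-likelihood test of edgeR, with cell line as a block. Of 17551 genes tested, 1125 rose (6.41%) and 905 fell (5.16%), where rose and fell mean a change of 2-fold or more and an unadjusted p of at most 0.05. After Benjamini-Hochberg adjustment edgeR called 0 genes, the smallest adjusted p was 0.128, and 2399 genes had an unadjusted p of at most 0.05. DESeq2 called 666 higher and 652 lower after adjustment and limma-voom 0 and 0. Every call below is therefore unadjusted, and counts of list members that rose or fell stand against these shares of all genes, 6.41% and 5.16%. The lines were chosen on pigment genes in these same libraries, so that genes that follow the pigment genes had to differ. A gene that moved by at least 2-fold in every line is the simplest guard against a call made by 1 line, and 343 genes were higher (1.95%) and 388 lower (2.21%) in this way. Without WM983A 1681 of 17947 genes rose (9.37%) and 1110 fell (6.18%), and 898 genes were 2-fold higher (5.12%) and 591 lower (3.37%) in both WM983B and WM902B. Without WM983B 647 rose and 699 fell, and without WM902B 957 and 895.

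The genes that moved most evenly outside the lineage were ranked by their smallest ratio over the 3 lines. ABCC3, a pump that exports conjugated drugs and bile acids, led the higher genes at 3.24 to 439 CPM in WM983A, 1.70 to 139 in WM983B and 2.86 to 149 in WM902B (log2 fold change 6.37 ± 0.45 (SE), adjusted p = 0.128). Its relative ABCC2 was at 24.0 to 723, 0.655 to 54.8 and 6.91 to 363 CPM (log2 fold change 5.60 ± 0.44, adjusted p = 0.128). For both pumps every resistant library was above every sensitive one. The share of all genes separated in this way is not given. Genes here and below were mostly named because they were called, which favours such separation, so it is a description only. BASP1, a membrane-bound protein of growing neurites, was at 3.69 to 179, 0.852 to 100.3 and 1.40 to 224 CPM (log2 fold change 6.56 ± 0.51, adjusted p = 0.128). LAMA5, a laminin chain of basement membranes, was at 5.38 to 831, 3.41 to 379 and 15.3 to 542 CPM (log2 fold change 6.40 ± 0.62, adjusted p = 0.128). Both genes were at or below 15.3 CPM in all 3 sensitive libraries and at 100.3 CPM or more in all 3 resistant ones. EHD2, a protein of the necks of caveolae, the potassium channel gene KCNMA1, the secreted glycoprotein gene STC2 and PDLIM1, a linker of actin fibres, rose by 4.42, 6.73, 5.23 and 3.77 on the log2 scale.

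On the falling side, RNF125, a ubiquitin ligase, was at 76.7 to 2.18 CPM in WM983A, 60.4 to 1.64 in WM983B and 41.8 to 0.944 in WM902B (log2 fold change -5.27 ± 0.33, adjusted p = 0.128). GJB1, a gap junction protein of Schwann cells and liver, was at 45.6 to 0.603, 28.1 to 0.505 and 28.2 to 0.0674 CPM (log2 fold change -6.57 ± 0.67, adjusted p = 0.128). All 3 resistant libraries were close to 0 for GJB1. PMP2, a protein of peripheral myelin, fell with a log2 fold change of -6.26. NGFR, the low-affinity neurotrophin receptor that marks the neural crest state of melanoma, was at 1569.7 to 11.6, 215 to 14.3 and 638 to 2.97 CPM (log2 fold change -6.34 ± 1.03, adjusted p = 0.142). It was low in all 3 resistant libraries although its sensitive level differed widely between lines. OPRD1, an opioid receptor, CADM4, an adhesion protein of myelinating Schwann cells, and FAM78B fell too, with log2 fold changes of -6.37, -4.78 and -5.81. Each gene given with a log2 fold change in these and the following paragraphs was also called without WM983A, without WM983B and without WM902B, unless the text says otherwise. Leaving out WM902B keeps only WM983A and WM983B, which come from the same patient. Most of these genes were named because they were called with all lines, which favours such calls.

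The 250 bases before the RefSeq transcription start are shown for 2 of the leading genes that rose (BASP1, LAMA5) and 2 that fell (RNF125, GJB1), since these moved together in all 3 lines, with their position in GRCh38.p14 and their strand.
BASP1 (chr5:17216573-17216822, plus strand): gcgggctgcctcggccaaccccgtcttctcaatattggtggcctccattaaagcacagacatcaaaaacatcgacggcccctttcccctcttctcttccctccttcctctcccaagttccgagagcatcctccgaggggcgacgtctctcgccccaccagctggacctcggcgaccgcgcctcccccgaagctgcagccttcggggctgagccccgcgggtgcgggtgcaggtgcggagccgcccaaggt
LAMA5 (chr20:62367313-62367562, minus strand): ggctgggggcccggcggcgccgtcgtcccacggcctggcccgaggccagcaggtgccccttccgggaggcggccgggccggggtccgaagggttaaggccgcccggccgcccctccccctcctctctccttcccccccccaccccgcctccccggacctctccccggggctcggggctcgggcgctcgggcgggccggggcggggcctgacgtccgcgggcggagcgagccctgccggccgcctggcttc
RNF125 (chr18:32018575-32018824, plus strand): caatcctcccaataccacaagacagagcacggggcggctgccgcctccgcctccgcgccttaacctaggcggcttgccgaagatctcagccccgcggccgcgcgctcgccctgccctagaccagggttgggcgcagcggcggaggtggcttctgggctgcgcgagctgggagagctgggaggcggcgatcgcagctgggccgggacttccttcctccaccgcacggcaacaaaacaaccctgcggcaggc
GJB1 (chrX:71214989-71215238, plus strand): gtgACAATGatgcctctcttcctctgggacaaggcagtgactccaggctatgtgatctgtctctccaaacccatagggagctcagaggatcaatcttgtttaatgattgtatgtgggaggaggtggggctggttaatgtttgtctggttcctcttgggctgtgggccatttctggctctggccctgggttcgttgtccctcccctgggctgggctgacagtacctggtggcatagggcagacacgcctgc
Capitals mark the only match among these 4 promoters to 5 motifs searched on both strands, which were ACAATG (SOX factors), TGANTCA (AP-1), GGAATG (TEAD), TCATGTG (the M-box of MITF) and CACGTG (an E-box, which cannot overlap the M-box in full). It is the SOX motif 247 bases before the start of GJB1. Of 10480 tested genes with a promoter sequence 4.86% held the SOX motif, against 3.69% of 651 genes that rose and 6.46% of 542 that fell. The pigment and other lineage genes were left out of the 651 and the 542 but not of the 10480, so these shares do not describe them. For AP-1 the shares were 3.77%, 3.99% and 5.72%, for TEAD 9.40%, 10.1% and 8.86%, for the M-box 1.39%, 1.38% and 1.29%, and for the E-box 9.02%, 6.14% and 8.86%, in the same order. A match is a description of the letters and no evidence of binding.

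**Figure D3:**
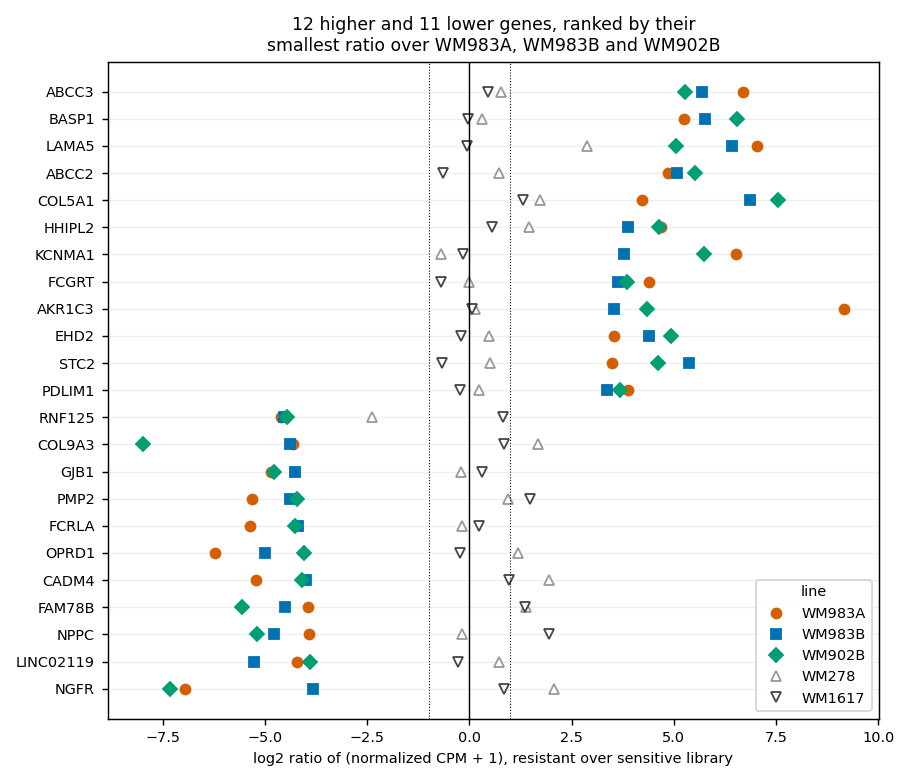
Points give the log2 ratio of normalized CPM plus 1, resistant over sensitive, for 12 higher and 11 lower genes in each of the 5 lines (filled, WM983A, WM983B and WM902B; open, WM278 and WM1617), with dotted lines at 2-fold. The filled points lie past 2-fold on 1 side for every gene, and the open points of ABCC2, BASP1, KCNMA1 and PDLIM1 lie within 2-fold.

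Most of the genes driven by ERK fell. Among 22 feedback inhibitors and targets of the pathway, all tested, 13 fell and 1 rose, and the median log2 fold change was -1.34 against 0.01 over all genes. DUSP6, the phosphatase that inactivates ERK, was at 182 to 14.4 CPM in WM983A, 159.7 to 48.6 in WM983B and 124 to 7.21 in WM902B (log2 fold change -3.19 ± 0.59, adjusted p = 0.165). SPRY2, an inhibitor of receptor signalling to RAS, was at 84.5 to 20.8, 78.0 to 37.0 and 108 to 8.02 CPM (log2 fold change -2.27 ± 0.60, adjusted p = 0.243). ETV4, a transcription factor downstream of ERK, was at 99.8 to 25.5, 67.7 to 16.3 and 178 to 4.85 CPM (log2 fold change -2.98 ± 0.80, adjusted p = 0.244). No resistant library reached the level of a sensitive one for these 3 genes, and WM902B was the lowest for each. DUSP4, another phosphatase of the pathway, and the cytokine gene LIF fell with log2 fold changes of -1.83 and -3.25. The count rests on WM983A and WM902B, since 9 members fell without WM983A, 12 without WM983B and 5 without WM902B, and the median ratio per line was -1.24 in WM983A, -0.26 in WM983B and -2.09 in WM902B. Not every target was lower: EGR1, an immediate early factor, was at 61.6 to 418 CPM in WM983B and the cyclin gene CCND1 at 180.4 to 594 in WM983A, neither of them called.

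Among receptor tyrosine kinases, which relay growth signals from outside the cell, 5 of 22 tested rose (22.7%) and 2 fell (9.09%). All genes gave 6.41% and 5.16%, and the median log2 fold change of the receptors was 0.48. EGFR, the epidermal growth factor receptor, was at 3.50 to 171 CPM in WM983A, 10.5 to 97.9 in WM983B and 3.46 to 46.4 in WM902B (log2 fold change 4.15 ± 0.61, adjusted p = 0.129). EPHB2, an ephrin receptor, was at 0.713 to 50.6, 0.0655 to 20.6 and 0.465 to 12.7 CPM (log2 fold change 6.07 ± 0.76, adjusted p = 0.129). The groups did not overlap for either receptor. EPHA2 rose by 2.15 on the log2 scale within lines, but at 4.79 to 21.2 CPM its resistant level in WM902B was below the sensitive levels of the other lines. TYRO3, a receptor of the AXL family, fell from 172 to 20.7 CPM in WM983A, 98.9 to 30.5 in WM983B and 133 to 42.5 in WM902B (log2 fold change -2.13 ± 0.40, adjusted p = 0.167), and EPHA3 fell by 3.64 on the log2 scale. AXL, often studied in resistant melanoma, was at 212 to 629, 243 to 215 and 128 to 263 CPM and was not called (adjusted p = 0.507). Single lines took up other receptors: MET was at 24.6 to 252 CPM in WM983A but 20.3 to 4.65 in WM902B, and PDGFRB, a receptor of fibroblasts and pericytes, was at 1.77 to 83.7 in WM983B and 9.57 to 301 in WM902B but 3.44 to 1.28 in WM983A. Without each line in turn 4 to 6 receptors rose and 2 to 3 fell.

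AP-1 is a dimer of JUN and FOS family proteins, and of 13 subunit genes 8 rose and 3 fell, with a median log2 fold change of 1.74. JUN was at 36.4 to 295 CPM in WM983A, 23.1 to 141 in WM983B and 37.5 to 312 in WM902B (log2 fold change 2.88 ± 0.28, adjusted p = 0.128). FOSL2 was at 43.5 to 221, 35.8 to 282 and 69.3 to 405 CPM (log2 fold change 2.61 ± 0.29, adjusted p = 0.129). JUNB and JDP2, a repressor of the family, rose by 1.74 and 2.34 on the log2 scale, and for these 4 genes every resistant library was above every sensitive one. The members that fell were FOSL1, a subunit that ERK stabilizes, at 388 to 159.9, 272 to 223 and 288 to 61.0 CPM, MAFF and MAF. FOSL1 was no longer called without WM983A or without WM902B, and MAF without WM983A or without WM983B. WM983B carried part of this pattern, because 5 members rose without it, against 7 without WM983A and 7 without WM902B. The falls depended more on WM983A, with 1 without it and 2 without either of the others.

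A list of 18 genes held the factors TEAD and YAP, which respond to cell shape and tension, with regulators and targets of theirs. Of these 18, 8 rose and 1 fell, with medians between 0.96 and 1.13 in the 3 lines. CCN1, a secreted matricellular protein, was at 53.3 to 259.8 CPM in WM983A, 120.4 to 1069.8 in WM983B and 11.9 to 204 in WM902B (log2 fold change 3.16 ± 0.47, adjusted p = 0.129). ANKRD1 was at 0.454 to 9.34, 1.18 to 23.7 and 0.598 to 5.39 CPM (log2 fold change 3.94 ± 0.50, adjusted p = 0.129), a low level in both groups, though higher in every resistant than in every sensitive library. AJUBA, a LIM protein that restrains the Hippo kinases, was at 32.1 to 128, 43.6 to 157 and 27.7 to 113 CPM (log2 fold change 1.94 ± 0.25, adjusted p = 0.129), and CRIM1 rose by 2.33. Of the factors themselves, YAP1 was at 74.7 to 122, 61.4 to 199 and 116 to 167 CPM and its relative WWTR1 at 267 to 367, 228 to 142 and 361 to 109. Neither YAP1 nor WWTR1 was called. TEAD2 rose by 1.26 on the log2 scale with all lines, but was not called with any of the lines left out. Without WM902B 5 members of the list rose, against 10 without WM983A and 7 without WM983B.

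In the TGF-beta and BMP pathway 7 of 19 tested genes rose and 3 fell. The ligand gene TGFB1 was at 30.7 to 297 CPM in WM983A, 53.1 to 238 in WM983B and 51.5 to 226 in WM902B (log2 fold change 2.51 ± 0.37, adjusted p = 0.129). LTBP4, which holds the ligand in the matrix, was at 53.9 to 188, 44.7 to 195 and 52.6 to 162 CPM (log2 fold change 1.84 ± 0.27, adjusted p = 0.129). The inhibitory SMAD7, itself induced by the pathway, was at 9.85 to 27.7, 7.60 to 40.8 and 17.7 to 52.7 CPM (log2 fold change 1.82 ± 0.34, adjusted p = 0.171). Groups were separate for all 3 genes, and SMAD6 rose as well, by 1.65. The receptor genes went the other way or were not called, TGFBR1 at 131 to 42.9, 163 to 151 and 119 to 21.5 CPM, which fell by 1.42 but was not called without WM983A or without WM902B, and TGFBR2 at 70.1 to 143, 39.6 to 60.4 and 53.8 to 104. TGFB2, a second ligand, was found in resistant WM983A (64.5 CPM) and WM902B (86.8) but not WM983B (0.252). The 3 falls were lost without WM902B, where 0 members fell.

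Collagens separated the lines. Of 14 tested, 4 rose and 0 fell, and without WM983A 9 rose and 0 fell. The median ratio was 0.02 in WM983A, 1.66 in WM983B and 2.18 in WM902B. COL5A1, a fibrillar collagen chain, was at 0.583 to 28.3 CPM in WM983A, 0.197 to 137 in WM983B and 0.665 to 311 in WM902B (log2 fold change 7.91 ± 0.97, adjusted p = 0.129). COL1A1, the main chain of type I collagen, was at 0.778 to 5.88, 0.393 to 89.5 and 11.4 to 1229 CPM (log2 fold change 5.97 ± 1.19, adjusted p = 0.178). Resistant WM983A stayed below sensitive WM902B for COL1A1, and COL1A2, the partner chain, was under 1 CPM in all 6 libraries. Fibrillar and network collagens of WM902B included COL12A1, at 15.9 to 792 CPM, and COL8A1, at 0.598 to 183, of which COL8A1 was under 1 CPM in all 4 libraries of the other lines described here. COL6A1 and COL6A2 were at 77.6 to 692 and 38.2 to 1173 CPM in WM983B, but at 174 to 43.2 and 122 to 52.4 in WM983A. Fibroblast markers moved with this result: their sum over 11 genes was 87.1 and 302 CPM in WM983B, 63.3 and 1696 in WM902B, of which COL1A1 alone was 1229, and 88.0 and 9.87 in WM983A. In resistant WM902B PDGFRA, at 2.13 to 104 CPM, and COL3A1, at 0 to 18.6, were also higher. Of the 11 genes 3 to 5 were at 3 counts or fewer in each of the 6 libraries, and DPT was at 0 in all of them. The part of fibroblasts in the collagen result was not tested.

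Other matrix genes also depended on the lines. Of 18 tested glycoproteins and cross-linkers 4 rose (22.2%) and 1 fell (5.56%), against 6.41% and 5.16% of all genes. The counts were 7 and 1 without WM983A and 2 and 2 without WM983B. VCAN, a large proteoglycan, was at 90.4 to 420.3 CPM in WM983A, 46.7 to 326 in WM983B and 60.3 to 267 in WM902B (log2 fold change 2.38 ± 0.30, adjusted p = 0.129). EDIL3, an integrin ligand, was at 2.27 to 21.8, 4.19 to 101 and 1.20 to 56.5 CPM (log2 fold change 4.45 ± 0.58, adjusted p = 0.129), and TNC, the gene of tenascin C, at 1474 to 21.8, 2358 to 199 and 1134 to 28.1 (log2 fold change -5.02 ± 0.68, adjusted p = 0.129). VCAN and EDIL3 were thus higher and TNC lower in every line. Fibronectin RNA (FN1) went from 11473 to 209 CPM in WM983A and 7293 to 1438 in WM902B, but from 7703 to 10154 in WM983B, and was not called. POSTN, a matrix protein of injured tissue, was at 0.786 to 1279.8 CPM in WM983B and under 1 CPM in the other 4 libraries, so that it was left out of the test.

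Of 23 integrin and laminin genes 3 rose (13.0%) and 4 fell (17.4%), against 6.41% and 5.16% of all genes. ITGB8, which with its partner activates latent TGF-beta, was at 263 to 1.36 CPM in WM983A, 240.5 to 3.03 in WM983B and 66.5 to 5.05 in WM902B (log2 fold change -5.89 ± 0.95, adjusted p = 0.139). LAMA1 fell by 3.22 while LAMA5 rose, as given above. Of all 23, the integrins ITGA4 and ITGA6 fell too, with log2 fold changes of -2.53 and -2.91, but were not called without WM983B, and 8 members rose without WM983A against 1 without WM983B. Among 19 matrix proteases and inhibitors 3 rose (15.8%) and 3 fell (15.8%), against 6.41% and 5.16% of all genes. MMP15, a membrane-bound protease, was at 85.6 to 27.8, 67.9 to 8.39 and 31.4 to 6.20 CPM (log2 fold change -2.33 ± 0.39, adjusted p = 0.148), and MMP16 fell by 4.19. MMP2, a secreted gelatinase, was at 39.0 to 54.9, 14.2 to 163 and 286 to 893 CPM, a rise that was called with all lines (adjusted p = 0.34) but not without WM983B or without WM902B. The number that rose was 2 without WM983A and 1 without WM983B, and the number that fell was 5 without WM983B.

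Contractile genes rose in part. Of 11 tested genes of actomyosin and smooth muscle 5 rose and 1 fell, with medians of -0.07 in WM983A, 1.46 in WM983B and 1.44 in WM902B. MYLK, the myosin light chain kinase, was at 19.1 to 140.3 CPM in WM983A, 32.3 to 342 in WM983B and 18.3 to 357 in WM902B (log2 fold change 3.51 ± 0.40, adjusted p = 0.129). TPM1, an actin-binding tropomyosin, was at 166 to 423, 109 to 551 and 55.8 to 367 CPM (log2 fold change 2.12 ± 0.39, adjusted p = 0.165). Both were higher in each resistant library than in any sensitive one. The filamin gene FLNC was at 0.590 to 148 CPM in WM983B and 1.40 to 163 in WM902B but at 0.583 to 0.452 in WM983A, and CALD1, the gene of caldesmon, at 312 to 524, 331 to 1654 and 442 to 55.9. Without WM983B or without WM902B 3 genes rose, and the 1 fall was lost without any 1 of the lines.

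States described in melanoma did not shift as blocks. Of 13 tested genes of the neural crest state 6 fell (46.2%) and 1 rose (7.69%), against 5.16% and 6.41% of all genes. Beside NGFR the nuclear receptor gene RXRG was at 32.0 to 0.527 CPM in WM983A, 16.2 to 1.01 in WM983B and 19.1 to 0.202 in WM902B (log2 fold change -5.39 ± 0.69, adjusted p = 0.129). SOX5 fell by 3.42 and the water channel gene AQP1 rose by 2.46, from at most 0.532 CPM in the sensitive libraries. The neural crest gene NES was at 609.6 to 4.07 in WM983A but 135 to 131 in WM902B, and without each line in turn 1 to 4 members rose and 4 to 6 fell. Of 20 tested genes of the undifferentiated and invasive state 7 rose and 3 fell. PLAU, the urokinase gene, was at 0.130 to 116, 0.197 to 2.90 and 0.532 to 224 CPM and rose, from levels of 2 to 8 counts in the sensitive libraries, which make its fold uncertain. CAV1, the coat protein of caveolae, was at 77.1 to 558, 61.8 to 192 and 68.7 to 170.0 CPM (log2 fold change 1.91 ± 0.42, adjusted p = 0.191), above the sensitive levels in all 3 lines. SERPINE2, a protease inhibitor, was among the members that fell, at 2205 to 236, 1313 to 356 and 1109.9 to 172 CPM (log2 fold change -2.61 ± 0.42, adjusted p = 0.139), and the ligand gene WNT5A was at 109 to 2.26 in WM983A but at 20.2 to 142 and 49.5 to 366 in the other lines and was not called. Of 6 EMT transcription factors, ZEB1 rose, with 0 to 29.3, 0.131 to 0.883 and 4.72 to 47.3 CPM, and not without WM983B.

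**Figure D4:**
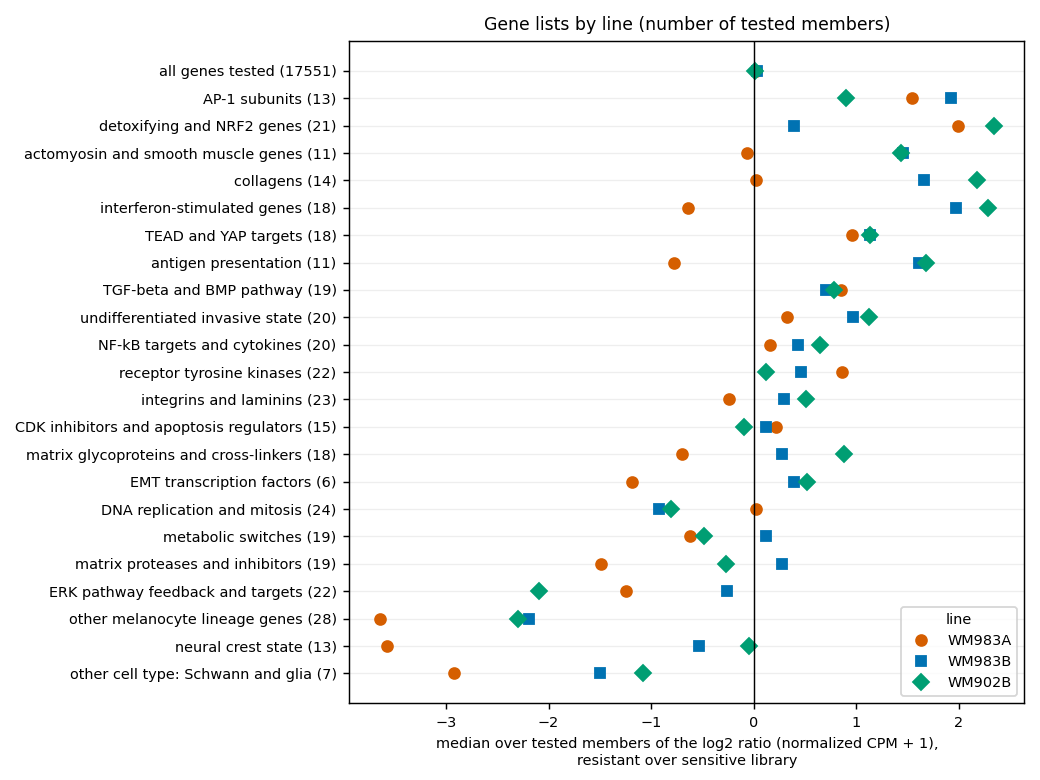
Each row is a gene list with its number of tested genes, and each point gives the median over those genes of the log2 ratio of normalized CPM plus 1, resistant over sensitive, in 1 line. AP-1, TEAD and YAP, TGF-beta and detoxifying genes lie to the right in all 3 lines, whereas interferon-stimulated genes lie at 1.97 in WM983B, 2.28 in WM902B and -0.64 in WM983A.

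Interferon-stimulated genes and antigen presentation set WM983A against the other lines. Of 18 interferon-stimulated genes 3 rose and 0 fell, but without WM983A 17 rose and 0 fell, and without WM983B 1 rose. In both WM983B and WM902B 14 of the 18 were at least 2-fold higher, against 5.12% of all genes. The median ratio was 1.97 in WM983B, 2.28 in WM902B and -0.64 in WM983A. Of the lines outside the rule, WM278 stood at 1.25 and WM1617 at 0.07. The rise was thus not confined to lines that lost the pigment genes. IFI6 was at 190.0 to 1057 CPM in WM983B and 16.7 to 232 in WM902B but 125 to 14.2 in WM983A. IFI44L was at 22.7 to 329, 0.0665 to 38.5 and 2.46 to 0.377 CPM in that order. Both were higher after resistance in WM983B and WM902B and lower in WM983A. OAS1, an antiviral enzyme, was the exception and rose in all 3 lines, at 12.1 to 34.1 CPM in WM983A, 45.2 to 171 in WM983B and 6.51 to 28.0 in WM902B (log2 fold change 1.82 ± 0.28, adjusted p = 0.132). The summed level of 10 leukocyte markers moved in the same directions and was 17.4 and 46.1 CPM in WM983B, 10.7 and 36.2 in WM902B and 41.4 and 16.8 in WM983A. Most of that sum was CD68, a lysosomal protein of macrophages, at 13.2 to 39.6, 7.51 to 34.2 and 38.2 to 16.5 CPM. Of the 10 genes 5 to 9 were at 3 counts or fewer in each library, and PTPRC, CD3E and MS4A1 were at or under 0.266 CPM in all 6. The part of leukocytes in the interferon result was not tested.

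Of 19 antigen presentation genes 11 could be tested, and 2 rose (18.2%) and 1 fell (9.09%), against 6.41% and 5.16% of all genes. The counts were 7 and 0 without WM983A, 0 and 1 without WM983B and 0 and 0 without WM902B. The median ratio was 1.61 in WM983B, 1.68 in WM902B, -0.78 in WM983A, 0.75 in WM278 and 0 in WM1617. B2M, the light chain of class I molecules, was at 458 to 1404 CPM in WM983B and 269 to 1796 in WM902B but 574 to 176 in WM983A. HLA-B was at 81.5 to 522, 36.7 to 659.8 and 83.7 to 3.16 CPM in the same order, and NLRC5, the activator of class I genes, at 11.9 to 49.9, 9.17 to 70.6 and 11.3 to 6.93. These 3 genes were higher in resistant WM983B and WM902B and lower in resistant WM983A. CIITA, the activator of class II genes, was lower in all 3 resistant libraries, at 31.2 to 20.6, 23.6 to 10.8 and 63.7 to 8.29 CPM, and CD74, the class II invariant chain, at 505 to 860.4, 80.2 to 28.6 and 1684 to 1.81, was higher in WM983B only. HLA counts are uncertain because these genes are close copies of each other, and TAP1, PSMB8 and HLA-DPA1 were listed at 0 in all libraries.

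**Figure D5:**
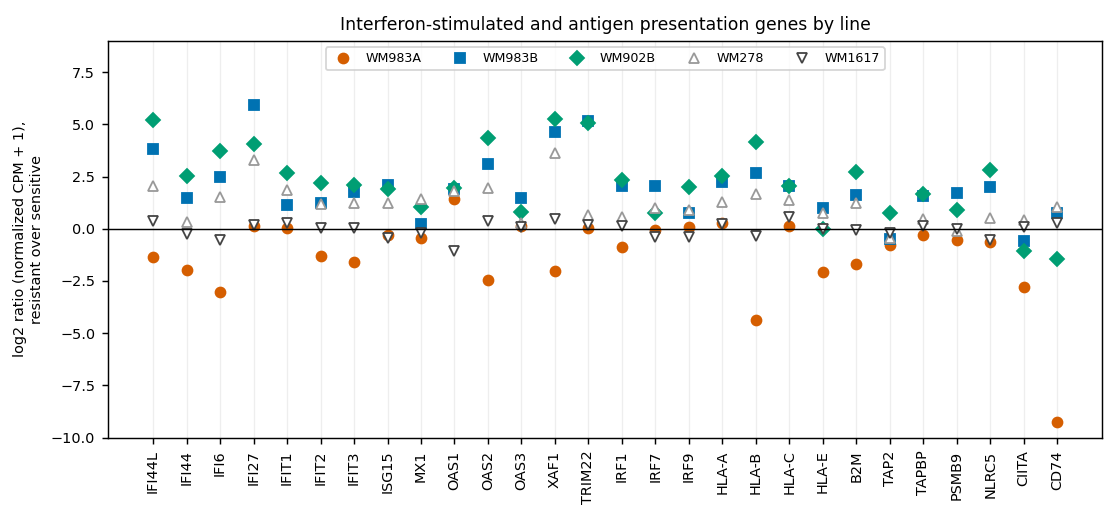
Points give the log2 ratio of normalized CPM plus 1, resistant over sensitive, of 17 interferon-stimulated genes and the 11 tested antigen presentation genes in each of the 5 lines (filled, WM983A, WM983B and WM902B; open, WM278 and WM1617). WM983B and WM902B lie above 0 for every interferon-stimulated gene, but not both for TAP2, CIITA, CD74 and HLA-E, and WM983A lies at or below 0 for most genes. Over all 18 tested genes of the interferon list the median is 1.25 in WM278 and 0.07 in WM1617.

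Cytokines and NF-kB targets gave 4 risen (20%) and 2 fallen (10%) of 20 tested, against 6.41% and 5.16% of all genes. CSF1, the macrophage growth factor, was at 30.5 to 146 CPM in WM983A, 27.9 to 357 in WM983B and 13.4 to 163 in WM902B (log2 fold change 3.17 ± 0.42, adjusted p = 0.129). BCL3, a nuclear partner of NF-kB, was at 17.2 to 51.6, 21.5 to 89.2 and 21.3 to 51.2 CPM (log2 fold change 1.62 ± 0.30, adjusted p = 0.167). CXCL8, the neutrophil attractant, was at 340.1 to 9.72, 482 to 53.8 and 9.77 to 2.90 CPM (log2 fold change -3.37 ± 0.76, adjusted p = 0.204). CSF1 and BCL3 were separate between the groups, while CXCL8 was lower within each line only. The chemokine gene CXCL12 was at 0.197 to 107 CPM in WM983B and 0 to 288 in WM902B but 0.648 to 0.527 in WM983A, and was not tested because too few libraries held it. IL6 was at 0.843 to 1.66, 2.29 to 97.3 and 0.133 to 35.4 CPM and rose with all 3 lines but not without WM983B or without WM902B. The number that rose was 6 without WM983A.

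Detoxifying genes, many of them targets of the factor NRF2, gave 7 risen and 1 fallen of 21 tested, and all 7 were at least 2-fold higher in every line. Beside ABCC3, the pump gene ABCC1 was at 29.9 to 123 CPM in WM983A, 24.2 to 64.0 in WM983B and 26.3 to 77.8 in WM902B (log2 fold change 1.66 ± 0.28, adjusted p = 0.149). AKR1C3, a carbonyl reductase, was at 0.130 to 646, 0.197 to 13.0 and 3.52 to 90.9 CPM and rose. Both genes were higher in each line, but AKR1C3 shares reads with AKR1C1 and AKR1C2, and its level in 2 sensitive libraries was at most 3 counts. TXNRD1, the thioredoxin reductase, was at 703 to 2062, 732 to 1907 and 340.3 to 2428 CPM and was called with all lines but not without WM902B. Classical targets did not all follow, since NQO1 was at 766 to 567 CPM in WM983B but 1125 to 2704 in WM983A and 1244 to 6296 in WM902B, and GCLM at 139 to 83.9, 88.0 to 353 and 71.3 to 414. ALDH1A3, a retinal dehydrogenase, fell from 1859 to 39.4, 649 to 182 and 74.7 to 8.63 CPM (log2 fold change -3.46 ± 0.86, adjusted p = 0.228). Without each line in turn 6 to 8 members rose and 1 fell.

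Proliferation genes were lower in part. Of 24 genes of DNA replication and mitosis 0 rose and 4 fell (16.7%), against 6.41% and 5.16% of all genes. The number that fell was 10 without WM983A, 1 without WM983B and 2 without WM902B. E2F1, the factor of the G1 to S transition, was at 213 to 97.6 CPM in WM983A, 203 to 92.2 in WM983B and 93.2 to 29.0 in WM902B (log2 fold change -1.33 ± 0.27, adjusted p = 0.183). MKI67, the usual proliferation marker, was at 369.9 to 468, 408 to 244 and 409 to 238 CPM and TOP2A at 438 to 1135, 545 to 364 and 452 to 366. Both were higher in resistant WM983A and lower in the other resistant libraries, and neither was called. Of 15 CDK inhibitors and apoptosis regulators 1 rose (6.67%) and 2 fell (13.3%), against 6.41% and 5.16% of all genes. The counts were 2 and 1 without WM983A, 0 and 3 without WM983B and 2 and 2 without WM902B. BCL2, which blocks apoptosis, was at 24.6 to 3.84, 20.7 to 7.26 and 14.8 to 4.11 CPM (log2 fold change -2.02 ± 0.41, adjusted p = 0.181), and the tumour suppressor gene CDKN2A was at 175 to 9.27 in WM983A but 219.5 to 299 in WM983B and was not called. BCL2L11, which promotes apoptosis, rose by 1.28 with all lines and not without WM983B or without WM902B.

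Single lines carried large changes that differed in size or direction from those of the others. In WM983A 2424 genes were at least 2-fold higher (13.8%) and 2775 lower (15.8%), against 2174 (12.4%) and 1428 (8.14%) in WM983B and 2003 (11.4%) and 1540 (8.77%) in WM902B, and 810 genes were 2-fold higher in 1 line and 2-fold lower in another. The aldehyde dehydrogenase gene ALDH3A1 was at 0 to 2526 CPM in WM983A, and AKR1B10, an aldose reductase, at 0.907 to 3327. Neither gene was above 24.5 CPM in WM983B or WM902B. In WM983B TIMP3, an inhibitor of matrix proteases, was at 765 to 1908 CPM, while it was at 1695 to 34.0 in WM983A and 1768 to 13.1 in WM902B. In WM902B BST2, an interferon-induced antiviral protein, was at 1.93 to 138 CPM and the transporter gene SLCO2B1 at 0.199 to 213. BST2 changed in the other lines too, at 153 to 0.678 CPM in WM983A and 182 to 440 in WM983B. These genes were named because 1 line differed most from the others, and they carry no test.

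WM278 and WM1617, in which the pigment genes did not drop, were compared with the 3 lines by an interaction term in edgeR. The change after resistance was at least 2-fold more positive in the 3 lines for 446 of 17287 genes (2.58%) and more negative for 559 (3.23%), at an unadjusted p of at most 0.05. After adjustment edgeR called 0 genes, 1036 had an unadjusted p of at most 0.05, DESeq2 called 129 and 220, and limma-voom 0. The number of more positive genes was 744 without WM983A and 248 without WM1617, and that of more negative genes 372 without WM278 and 347 without WM1617. The lines were sorted by the change of the pigment genes, so genes that follow those genes had to differ here too. EGFR went from 124 to 54.6 CPM in WM278 and 4.41 to 0.856 in WM1617, against the rise in the 3 lines (difference 5.86 ± 0.88 on the log2 scale, adjusted p = 0.24). JUN was at 306 to 459 and 5.26 to 4.62 CPM (difference 2.68 ± 0.42, adjusted p = 0.258), and FOSL2 at 107 to 108 and 42.5 to 30.3 (difference 2.86 ± 0.40, adjusted p = 0.228). BASP1 was at 15.3 to 19.2 and 0.426 to 0.400 CPM (difference 6.38 ± 0.68, adjusted p = 0.157). For these 4 genes neither of the other lines gained 2-fold. By contrast SMAD6 was at 9.20 to 59.7 CPM in WM278 and 30.4 to 46.4 in WM1617 (difference 0.02 ± 0.73, adjusted p = 0.999), and ETV4 at 139 to 11.2 and 212 to 167 (difference -0.99 ± 1.49, adjusted p = 0.999), so no difference from the 3 lines was detected for them. Of the genes that rose in the 3 lines, 26.6% were also 2-fold higher in WM278 and 1.24% in WM1617, against 7.62% and 1.01% of all genes, and of those that fell 20.3% and 1.66% were 2-fold lower, against 4.69% and 1.47%. WM278 had little pigment gene RNA before resistance, with PMEL at 4.35 to 4.28 CPM, although SOX10 stood at 316 to 274.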

How the data were processed

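RNA of 5 sensitive and 5 resistant lines was sequenced as 1 library each, single end, 75 cycles. The authors aligned reads to GRCh38 with HISAT2, and the expected counts they deposited per gene include fractions. Their normalized columns hold log2 values, the ratio of each resistant to its sensitive library, per the file headers and the values; these were used only to recover 455 expected counts of sensitive WM983B that the deposited file holds as dates. Counts were rounded. The library total was 13693922 to 15458683 in the 6 libraries. Intervals are not given, and 3 counts, the detection floor, cover counting error only.

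Genes were kept by filterByExpr, scaled by TMM and tested two-sided in edgeR 4.0.16 (quasi-likelihood, R 4.3.3) with cell line as a block, since each resistant line was raised from its sensitive counterpart. Correlations of deviations from group means between the libraries of 1 line were -0.111 (WM983A), 0.421 (WM983B) and 0.372 (WM902B). An exact permutation test of 3 against 3 that ignores the pairing by line cannot go below 0.10. Keeping the pairs allows fewer arrangements, and neither form was used. Alternatives used limma 3.58.1 and DESeq2 1.42.0. The steps were tested on simulated data. Of 57955 genes, 56911 were found in GENCODE release 44, and 10480 tested genes had a promoter sequence in RefSeq (GRCh38.p14). Members and gene lists were chosen with earlier results of these data known. Named genes are those with the largest smallest ratio over the lines, those of the lists, those where 1 line differed most, and those that the study followed by qRT-PCR. The counting of reads shared by genes is not given in the sources used here. A few genes are not reported here.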

Additional observations from a re-analysis of the deposited data

Results flagged for a closer look

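EGFR, S100B and FAM78B are named genes in which all 3 lines that lost the melanocyte program moved at least 2-fold one way and both other lines at least 2-fold the opposite way. EGFR changed by 5.86 more on the log2 scale in the 3 lines (edgeR interaction, adjusted p = 0.240), with 124 to 54.6 CPM in WM278 and 4.41 to 0.856 in WM1617. S100B differed by -8.67, with 92.0 to 626 CPM in WM278 and 40.9 to 103 in WM1617. As S100B is a gene of the lineage that sorted the lines, its difference is a description and carries no test. FAM78B differed by -7.30 (edgeR, adjusted p = 0.228), with 7.96 to 22.5 and 5.19 to 14.9 CPM. No difference passed adjustment, and 7 genes in all had this pattern, the others being LRRK2, NCALD, PCDH1 and TEKTIP1.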

How the results depend on the processing

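After adjustment edgeR called 0 genes with the line block, 0 higher and 1 lower with no replicate block, 73 and 77 with no filter on low counts, and 4 and 2 among genes with at least 10 counts in every library, whereas DESeq2 called 666 and 652. Unadjusted, no filter gave 1822 higher and 1366 lower, no replicate block 1199 and 818, and leaving out each line in turn 647 (without WM983B) to 1681 (without WM983A) higher. For the difference from WM278 and WM1617, adjusted calls were 129 and 220 by DESeq2 and 7 and 20 with no filter, and unadjusted calls were 229 and 316 with no replicate block, 799 and 862 with no filter, and 248 (without WM1617) to 744 (without WM983A) higher and 347 (without WM1617) to 669 (without WM902B) lower with each line left out. Genes past 2-fold in every line numbered 156 higher and 235 lower with a pseudocount of 5, 520 higher with 0.25, 856 and 811 at 1.5-fold, 74 and 110 at 4-fold, and 620 to 898 higher and 591 to 711 lower with each line left out, by construction since fewer lines must pass. The cause of the other changes was not tested. Of 158 called genes that the naming rule chose outside the lineage, 136 were still called with no replicate block, 157 by DESeq2, 158 by limma-voom and 138 without WM983A, 116 of 153 without WM983B and 122 of 157 without WM902B, and 0 changed sign. Of 269 list medians under alternatives 24 moved by more than the spread between lines and 13 changed sign. With at least 10 counts in every library, which leaves out genes near 0 in any of them, the median went from -3.06 to 0.14 for the neural crest state, 0.56 to -0.25 for NF-kB targets and cytokines and -2.62 to 0.94 for leukocyte markers. Without WM983A it changed sign for CDK inhibitors and apoptosis regulators (0.06 to -0.23), EMT factors (-0.49 to 0.20), matrix glycoproteins (-0.13 to 0.46) and matrix proteases (-0.66 to 0.17), and without WM902B for fibroblast markers (1.08 to -1.10), antigen presentation (1.04 to -0.07) and integrins and laminins (0.23 to -0.03). The same 3 lines were chosen under each of 3 other forms of the rule. With 3 lines, 2 of them from 1 patient, the spread between lines limits the precision, and 3 counts limit what can be detected in 1 library.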

Other observations

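Metabolic and glial genes have not yet been described. Of 19 tested metabolic genes 0 rose and 2 fell (10.5%), against 6.41% and 5.16% of all genes. PFKFB4, a regulator of glycolysis, was at 279 to 10.8 CPM in WM983A, 297 to 89.5 in WM983B and 219.6 to 21.4 in WM902B (edgeR log2 fold change -3.27 ± 0.67, adjusted p = 0.183), and FABP7, a fatty acid carrier of glia and melanoma, was at 17.0 to 0.0753, 7.60 to 0.252 and 9.37 to 0. Both were lower in each resistant library than in any sensitive one. LDHA, the lactate dehydrogenase gene, was at 685 to 860.3, 737 to 1097 and 788 to 471 CPM and was not called. Without WM983A 1 metabolic gene rose and 3 fell. Of 7 tested Schwann cell and glial markers 5 fell, among them MBP, a myelin protein, at 487 to 63.4, 129.7 to 45.2 and 85.1 to 39.8 CPM, and their summed level over 8 genes was 2003 and 146 CPM in WM983A, 1157 and 186 in WM983B and 715 and 315 in WM902B. Of 8 tested epithelial markers 1 rose and 1 fell, the splicing factor gene ESRP1 at 26.4 to 0.527, 19.1 to 0.820 and 13.6 to 0.337 CPM. Of 6 tested fibroblast markers COL1A1 rose, of 2 leukocyte markers LYZ fell, and the 1 endothelial marker tested was not called.

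Genes that the study followed by qRT-PCR included some not yet given. ALPK2, an atypical kinase, was at 0.130 to 62.8 CPM in WM983A, 0.131 to 8.83 in WM983B and 0.532 to 80.7 in WM902B (edgeR log2 fold change 7.42 ± 0.66, adjusted p = 0.128), and CHST15, a sulfotransferase of chondroitin, at 0.130 to 58.9, 0.0655 to 1.20 and 0.199 to 6.74. DMRT2, a transcription factor, was at 6.87 to 0.0753, 10.7 to 0 and 7.31 to 0 CPM, and VEPH1 at 21.8 to 0.151, 9.24 to 0.694 and 3.52 to 0.135. All 4 moved the same way in the 3 lines. ALPK2 had only 2, 2 and 8 counts in the sensitive libraries of WM983A, WM983B and WM902B, so its fold is uncertain. The paper lists CHST15, DMRT2 and VEPH1, but neither ALPK2 nor GJB1, among the genes with the same direction by qRT-PCR. In WM278 all 4 had the same directions, with ALPK2 at 3.79 to 40.3, CHST15 at 0 to 2.55, DMRT2 at 24.9 to 0.702 and VEPH1 at 22.3 to 2.43 CPM, and in WM1617 VEPH1 was at 17.6 to 2.28.

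From at most 3 counts to at least 100 counts went 241 genes in WM983A, 57 in WM983B, 74 in WM902B, 32 in WM278 and 0 in WM1617. The reverse held for 142, 14, 56, 11 and 11 genes in the same order.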
